A study of Bos taurus with 22 samples.

Results

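The subcutaneous fat of 8 Kinsella composite (KC) steers was compared with that of 8 Angus (ANG) steers by RNA-Seq. These are 16 of the 22 steers sequenced, and the rest are Charolais (CHAR) steers, whose levels are given beside some genes only as a description. KC is labelled a Hereford by Angus crossbred, and the study's methods derive it from Angus, Charolais and Alberta Composite bulls on a composite dam line, so both breeds compared carry Angus ancestry. Each breed had 4 H-RFI and 4 L-RFI steers, chosen from the extremes of residual feed intake adjusted for backfat (RFIfat), the feed a steer ate beyond that predicted for its growth and fatness. RFIfat was 0.54 to 2.03 kg in the KC H-RFI steers, -1.77 to -0.8 kg in the KC L-RFI steers, 0.75 to 1.64 kg in the ANG H-RFI steers and -1.13 to -0.75 kg in the ANG L-RFI steers. The steers were finished on a barley diet and backfat was taken after slaughter. Their ages and birth years are not in the labels used here, so that breed cannot be told apart from any such difference between the groups.

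Backfat is made up mainly of adipocytes, which build fatty acids from citrate and acetate and store them as triacylglycerol, together with vessels, nerve, immune cells and the fibroblasts that lay down matrix. The labels give the cell type as adipocytes, but none of the 18 adipocyte identity genes listed for checking could be paired with an identifier, so the label was not checked against them. In whole tissue, fewer cells of a type and less RNA per cell cannot be told apart.

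Of 24616 genes, 13613 passed the low-count filter, which asked for more than 1 CPM (counts scaled to a common library total) in 8 or more of the 16 animals, and were tested. Between 8033010 and 12426100 reads were counted on genes in a KC steer, and between 8224040 and 11536800 in an ANG steer (totals to 6 digits). Reads counted on genes made up 39.1% ± 1.38 (SD, n = 8) of uniquely aligned reads in KC and 40.3% ± 1.26 (SD, n = 8) in ANG, and the KC L-RFI steers had the lowest shares of the 16 (37.2 to 38.5%). An exact permutation test of breed within RFI group gave p = 0.08 (2-sided, adjusted p = 0.630 over 12 such measures, smallest possible p = 0.000408). The share of reads falling on more than 1 gene was under 0.7% in 3 KC and 3 ANG steers and higher in the other steers of both breeds.

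A small set of genes differed between the breeds. Differential expression (DE), taken as an absolute log2 fold change (log2FC, KC minus ANG) of at least 1 with a Benjamini-Hochberg FDR below 0.1 in edgeR's quasi-likelihood test with RFI group as covariate, was found for 33 genes, or 0.242% of those tested. Of these, 18 were higher and 15 lower in KC. At any fold, 380 genes (2.79%) had an FDR below 0.1, of which 162 (1.19%) were higher and 218 (1.6%) lower in KC, and their median absolute log2FC was 0.48. An unadjusted p under 0.05 was reached by 2496 genes (18.3%). The levels of the 8 KC and 8 ANG steers did not overlap for 30 genes (0.22%), of which 22 were lower in KC.

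**Figure D1:**
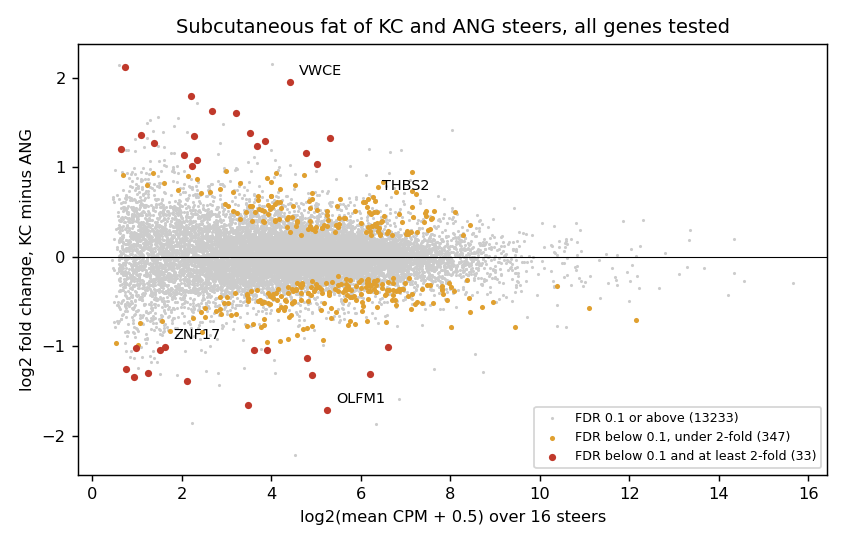
Each point is 1 of 13613 genes, with log2 of its mean CPM plus 0.5 over the 16 steers on the x axis and its log2 fold change, KC minus ANG, on the y axis. The 33 genes past both cut-offs (red) lie on both sides of 0, 18 above and 15 below, and the 347 genes past the FDR alone (orange) change by less than 2-fold.

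How firmly these genes can be counted depended on single steers. Leaving out 1 steer at a time gave between 7 DE genes (without F25, an ANG L-RFI steer) and 66 (without F11, a KC L-RFI steer, or F32, an ANG H-RFI steer). It was 21 or fewer without any 1 of F1, F7, F8, F14, F16, F18, F20, F21, F25 or F28. Adding the share of reads counted on genes as a covariate left 7 DE genes, 4 of them among the 33. The 380 genes at any fold became between 80 (without F25) and 754 (without F11), 1056 with DESeq2, and 20 with that covariate, of which 4 were higher in KC.

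**Figure D2:**
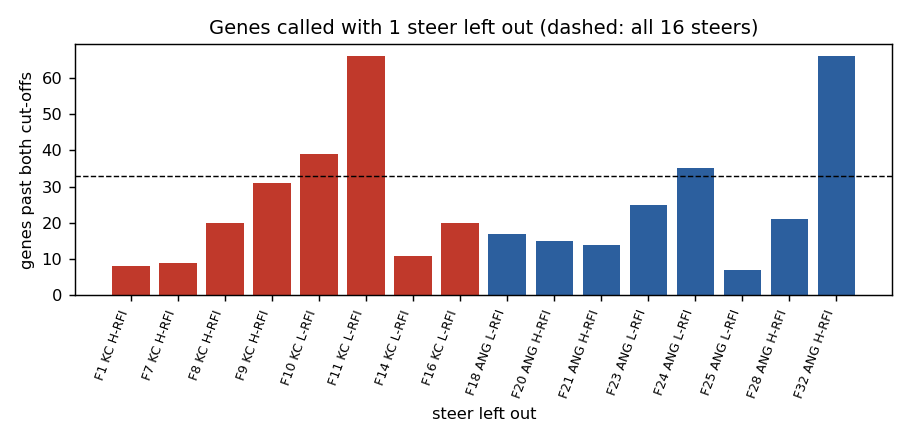
Each bar is the number of genes past both cut-offs (y axis) when the steer named on the x axis was left out, red for KC and blue for ANG steers, and the dashed line marks the 33 genes with all 16 steers. The count ranges from 7 without F25 to 66 without F11 or F32.

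Gene symbols could be paired with 242 identifiers, 232 of them tested, through a list that the study drew up from RFI differences in these same steers. The list is therefore not an independent sample of the genes of fat, and it bears most on the comparisons within an RFI group. Of the 232 genes, 4 had an FDR below 0.1 (1.72%, against 2.79% of all genes tested), 2 higher and 2 lower in KC, and 47 an unadjusted p under 0.05 (20.3%, against 18.3%). By direction, 33 of the 47 were higher in KC (14.2%, against 9.06% of all genes) and 14 lower (6.03%, against 9.28%), so that the list leaned towards higher levels in KC. A log2FC above 0 was found for 132 of the 232 genes and for 6955 of all 13613.

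VWCE, which encodes a secreted protein with von Willebrand factor C and EGF domains, was the most clearly different of the genes with a symbol. Its level, in CPM scaled by TMM, was 64.6, 77.5, 32.1 and 28.1 in the KC H-RFI steers F1, F7, F8 and F9. In the KC L-RFI steers F10, F11, F14 and F16 it was 10.2, 13.2, 20.7 and 24.05. In ANG it was 9.39, 5.59, 6.02 and 15.6 in the H-RFI steers F20, F21, F28 and F32, and 4.35, 5.69, 9.62 and 6.51 in the L-RFI steers F18, F23, F24 and F25. The KC H-RFI steers were all above every ANG steer, whereas F10 and F11 fell inside the ANG range through F32. VWCE was higher in KC by a log2FC of 1.95 ± 0.31 (SE, n = 8 and 8, FDR = 0.0212), on 48 to 891 counts per steer. It had an FDR below 0.1 in each of 27 alternatives tried, with a log2FC of 1.77 to 2.10 when single steers were left out. The CHAR steers had 13.2 to 29.6 CPM.

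THBS2, thrombospondin 2, a matrix protein made by fibroblasts that restrains vessel growth, was also higher in KC. The KC steers had 71.2 to 121 CPM and the ANG steers 32.1 to 77.2 CPM, so that the groups overlapped at F11 and F16 of KC and at F24 and F32 of ANG. Its log2FC was 0.67 ± 0.15 (SE, n = 8 and 8, FDR = 0.061), with 0.70 among H-RFI and 0.63 among L-RFI animals. Without 1 of F7, F14, F20 or F25 its FDR rose to between 0.101 and 0.107, and with the share of reads on genes as covariate to 0.142.

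OLFM1, olfactomedin 1, a secreted glycoprotein best known from the nervous system, was lower in KC. The KC steers had 3.45 to 42.9 CPM and the ANG steers 16.4 to 111 CPM. The ANG steers were widely spread, since F20 (16.4), F24 (16.9), F32 (25.6) and F23 (42.6) lay within the KC range and F25 (111), F21 (93.5), F28 (84.3) and F18 (56.9) lay above it. OLFM1 fell by 1.71 on the log2 scale (SE 0.47, n = 8 and 8, FDR = 0.0908). Its log2FC was -1.01 ± 0.60 among H-RFI and -2.48 ± 0.64 among L-RFI animals. The call was lost in 11 of 16 fits that left out a steer (FDR up to 0.168). It was also lost in 4 of 11 other alternatives, over which the FDR reached 0.356 and the log2FC ranged from -1.76 to -0.90. In the steers with a low share of ambiguous reads the KC mean of OLFM1 was 13.0 and the ANG mean 84.0 CPM, and in the other steers 22.1 and 39.0 CPM. Across CHAR it ranged from 4.56 to 77.3 CPM.

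ZNF17, a zinc finger gene, was low in every library, at 5 to 53 counts, and its family holds many similar copies between which reads may be split. The KC steers had 0.435 to 3.33 CPM and the ANG steers 2.2 to 4.8 CPM, and the lowest values were those of the 4 KC H-RFI steers (0.435 to 1.42). Its log2FC was -1.00 ± 0.26 (SE, n = 8 and 8, FDR = 0.0818), with -1.66 ± 0.33 among H-RFI and -0.45 ± 0.30 among L-RFI animals. The call was lost in 9 of 16 fits that left out a steer, with an FDR of up to 0.139, and in 3 of 11 other alternatives, with an FDR of up to 0.206.

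**Figure D3:**
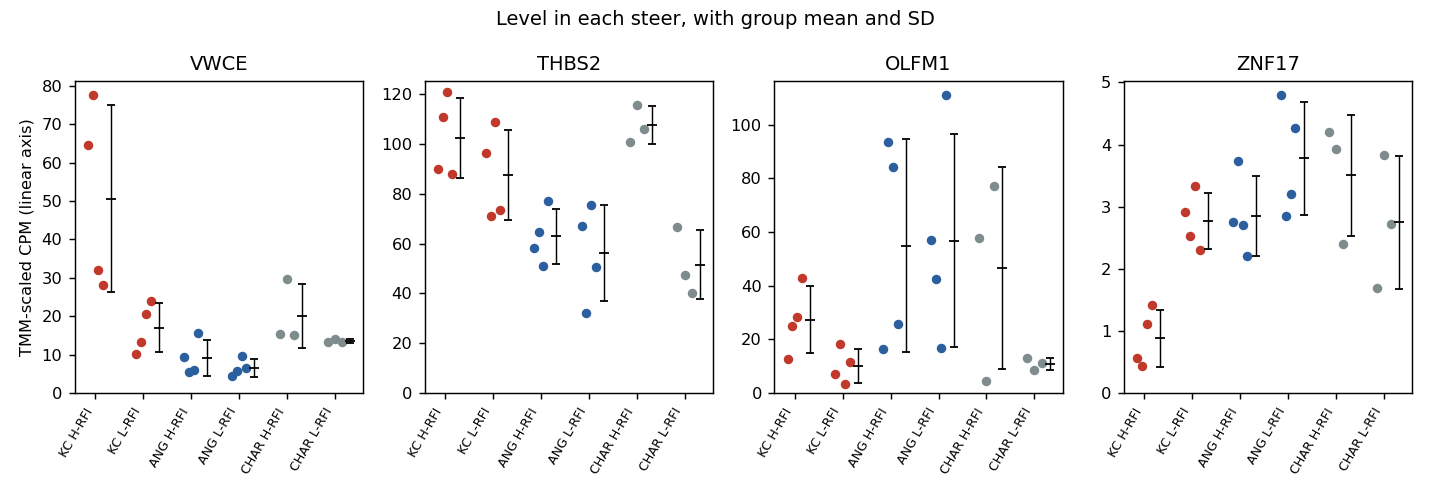
Each dot is the TMM-scaled CPM of 1 steer (y axis, linear and starting at 0) in the 6 breed and RFI groups (x axis) for VWCE, THBS2, OLFM1 and ZNF17, with the group mean and SD beside it, for 4 steers in each KC and ANG group and 3 in each CHAR group. The KC H-RFI steers have 28.1 to 77.5 CPM of VWCE, above all ANG steers, while OLFM1 in ANG spreads from 16.4 to 111 CPM.

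Of the 33 DE genes only 3 had a symbol, VWCE, OLFM1 and ZNF17, and the function of the others cannot be given. ENSBTAG00000001365 separated the breeds completely, with 2.96 to 9.73 CPM in KC and 10.8 to 28.7 CPM in ANG. It fell by 1.66 on the log2 scale (SE 0.26, n = 8 and 8, FDR = 0.0212), kept an FDR below 0.1 in all 27 alternatives, and had 3.27 to 7.33 CPM in CHAR. ENSBTAG00000015043 was lower in KC, with 43.3 to 85.03 CPM against 61.1 to 196 CPM (log2FC -1.01 ± 0.20, FDR = 0.0413), and F18 and F28 of ANG lay inside the KC range. ENSBTAG00000003396 was higher in KC, with 24.98 to 77.6 against 11.3 to 30.3 CPM (log2FC 1.03 ± 0.21, FDR = 0.0457). ENSBTAG00000012640 was also higher, with 2.07 to 13.9 against 1.63 to 3.801 CPM (log2FC 1.35 ± 0.28, FDR = 0.0509). With the share of reads on genes as covariate, the last 3 had an FDR of 0.1002, 0.102 and 0.128 in this order.

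The breeds were then compared within each RFI group, in a fit of 4 groups. In the H-RFI steers 126 genes (0.926%) had an FDR below 0.1, 50 higher and 76 lower in KC, and 31 also passed the fold cut-off. In the L-RFI steers 4 genes (0.0294%) had an FDR below 0.1, all lower in KC, and 1 also passed the fold cut-off. An unadjusted p under 0.05 was reached by 2466 genes (18.1%) among H-RFI steers, and by 1391 (10.2%) among L-RFI steers. The difference between the RFI groups was tested as an interaction, which no gene passed at an FDR below 0.1 in edgeR's quasi-likelihood test (smallest FDR 0.565, with 1141 genes or 8.38% at an unadjusted p under 0.05), whereas edgeR's likelihood ratio test gave 5 genes and DESeq2 33. The interaction was tested gene by gene. The counts of called genes in the 2 RFI groups were not compared by a test, so that no difference between them is shown. The H-RFI count was 0 without any 1 of F7, F8, F18, F20, F25 or F28, between 8 and 81 without F10, F14, F16, F21 or F24, 438 without F9 and 1339 without F32. The L-RFI count was 283 without F11, 105 without F24, 6 without F28, and 0 without any 1 of F7, F10, F14, F16, F18, F20, F23, F25 or F32.

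Among the genes with a symbol, 10 (4.31%, against 0.926% of all genes) had an FDR below 0.1 in the H-RFI steers and 0 in the L-RFI steers. An unadjusted p under 0.05 was reached by 80 of them (34.5%, against 18.1%) among H-RFI steers, and by 59 (25.4%, against 10.2%) among L-RFI steers. Because the study chose these genes for RFI differences within a breed, a breed difference in one RFI group can follow from that choice, and the values are a description. DUSP4, a phosphatase that switches off MAP kinases, had 31.2, 70.3, 36.4 and 21.9 CPM in the KC H-RFI steers. In the ANG H-RFI steers it had 3.72 to 14.4 CPM. Its log2FC was 2.32 ± 0.48 (SE, n = 4 and 4, FDR = 0.0878) in H-RFI steers, against -0.27 ± 0.49 among L-RFI steers (interaction FDR = 0.565). METRNL, meteorin-like, a hormone secreted by fat and muscle, had 95.1 to 168 CPM in KC and 43.2 to 82.1 CPM in ANG H-RFI steers (log2FC 1.22 ± 0.28, FDR = 0.0885), against a log2FC of 0.03 in L-RFI steers.

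The other members called in the H-RFI steers, beside VWCE (log2FC 2.46, FDR = 0.0735) and ZNF17 (-1.66, FDR = 0.0878), were lower in KC. HPGD, which inactivates prostaglandins, had 16.7 to 25.3 CPM in the KC and 37.6 to 98.3 CPM in the ANG H-RFI steers (log2FC -1.58 ± 0.33, FDR = 0.0878). FAM13A, a gene linked to fat distribution, had 70.1 to 129 CPM in the KC and 147 to 257 CPM in the ANG H-RFI steers (log2FC -1.13 ± 0.26, FDR = 0.0878). ALPK2, an alpha kinase of muscle, had a log2FC of -1.50 ± 0.34 (FDR = 0.0878). PRSS42 (-1.87, FDR = 0.0735), ZNF84 (-1.17, FDR = 0.0983) and LOC540403 (-1.89, FDR = 0.093) were all at low levels. None of these 10 genes had an interaction FDR below 0.565.

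The genes of sterol and fatty acid synthesis had fold changes of opposite sign in the RFI groups, and none passed the FDR in either. These are SREBF1, the transcription factor that drives lipid synthesis, ACLY, which splits citrate to acetyl-CoA, Slc25a1, the carrier that brings citrate out of mitochondria, AACS, which makes acetoacetyl-CoA, and SQLE, LSS and TM7SF2, enzymes of the sterol pathway. Over all 16 steers, 0 of the 7 had an FDR below 0.1 and 0 an unadjusted p under 0.05, and their median log2FC was -0.39 against 0.01 over all genes tested. All 7 had a log2FC above 0 in the H-RFI steers (median 0.39) and all 7 below 0 in the L-RFI steers (median -1.14). All 7 also had an unadjusted interaction p under 0.05, against 8.38% of all genes and 35.3% of the 232 genes with a symbol. None had an interaction FDR below 0.565. The study called SREBF1, ACLY, AACS, LSS, SQLE and TM7SF2 lower in L-RFI than in H-RFI KC steers, using these same animals. Opposite signs in the RFI groups and small interaction p-values can therefore follow from how the genes were chosen. The group was also formed after its values were seen, so these counts are a description. The KC L-RFI steers also had the lowest shares of reads counted on genes, and with that share as covariate the log2FC over all 16 steers moved from -0.77 to -0.24 for ACLY, from -0.53 to -0.09 for LSS, from -0.28 to 0.03 for SREBF1 and from 0.34 to 0.70 for SQLE. Its part in the differences within an RFI group was not tested.

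The mean level of Slc25a1 was 834 CPM ± 105 in KC H-RFI, 405 ± 175 in KC L-RFI, 618 ± 130 in ANG H-RFI and 946 ± 338 in ANG L-RFI steers (SD, n = 4 each). Its log2FC was 0.43 ± 0.28 among H-RFI steers, compared with -1.22 ± 0.29 among L-RFI steers (FDR = 0.154 in L-RFI). ACLY, the most highly counted of these genes, ranged from 245 to 1286 CPM in the KC L-RFI steers and from 618 to 3790 CPM in the ANG L-RFI steers. The KC L-RFI steer with the highest ACLY and Slc25a1 was F11. BDH1, which interconverts ketone bodies, had a log2FC of -1.44 ± 0.33 in L-RFI (FDR = 0.154) and 0.17 ± 0.32 in H-RFI steers.

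**Figure D4:**
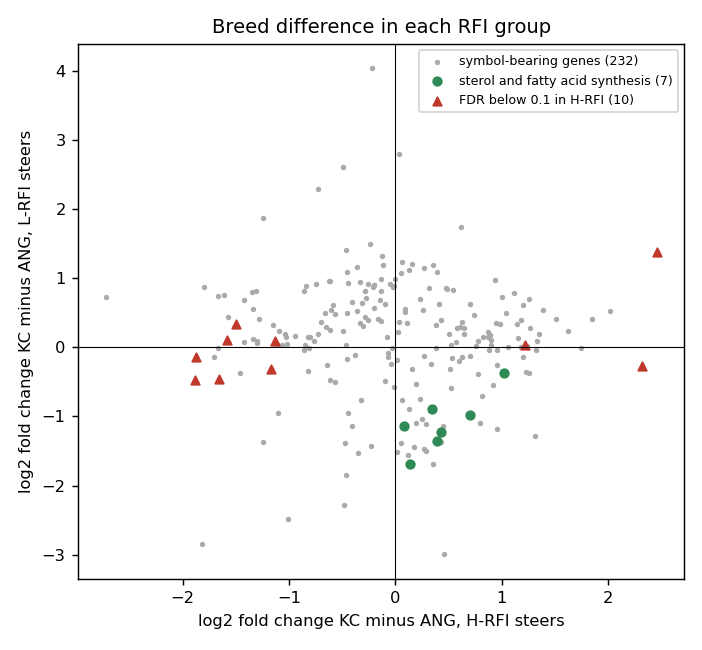
Each point is 1 of 232 genes with a symbol, with its log2 fold change KC minus ANG in H-RFI steers on the x axis and in L-RFI steers on the y axis. The 7 genes of sterol and fatty acid synthesis (green) all lie right of 0 and below 0, and the 10 genes with an FDR below 0.1 in H-RFI steers (red triangles) spread along the x axis.

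The remaining genes with a symbol were grouped by role after their values were seen, and the groups carry no test. Their counts stand against 132 of 232 genes with a log2FC above 0, or 117 among H-RFI and 149 among L-RFI animals. Of the 232 genes, 33 were higher in KC at an unadjusted p under 0.05. The study's choice of these genes by RFI differences within a breed can shape any count within an RFI group. That influence may differ from role to role, and these shares do not remove it. Of 17 genes of the extracellular matrix and its enzymes, 15 had a log2FC above 0 (median 0.52), 5 of them with an unadjusted p under 0.05, and THBS2 alone passed the FDR. Within the RFI groups, 10 of the 17 were above 0 among H-RFI animals (median 0.39) and 16 among L-RFI animals (median 0.73). The other 4 were HAS2, which makes hyaluronan (log2FC 0.73, FDR = 0.159), the syndecan SDC4 (0.87, FDR = 0.153), the protease PAPPA (0.99, FDR = 0.203) and ADAMTS4, which cleaves aggrecan (0.95, FDR = 0.257). All 5 genes of ribosome biogenesis had a log2FC above 0 (median 0.43), 2 of them, PPAN and URB2, with an unadjusted p under 0.05 and 0 with an FDR below 0.1, and their median was 0.87 among H-RFI and 0.04 among L-RFI animals. Of 8 genes of signal feedback and stress, 7 had a log2FC above 0 (median 0.55, with 0.96 among H-RFI and 0.12 among L-RFI animals), among them ARC (1.40, FDR = 0.112).

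Genes of lipid storage, transport and fuel use lay mostly on the other side, with 7 of 11 below 0 (median -0.52) and 0 at an FDR below 0.1, although 5 of the 11 were below 0 among H-RFI and 6 among L-RFI animals. ABCA1, which exports cholesterol, had 133 to 248 CPM in KC and 171 to 418 CPM in ANG (log2FC -0.59 ± 0.19, FDR = 0.127). G0S2, an inhibitor of the lipase that breaks down triacylglycerol, had a log2FC of 0.94 (FDR = 0.243). Growth, Wnt and BMP signalling was mixed. SFRP4, a secreted Wnt inhibitor of fat, had a log2FC of 0.77 (FDR = 0.175), and NKD2 and SOST, other Wnt inhibitors, had -0.70 (FDR = 0.153) and -0.91 (FDR = 0.181). Of 22 immune and inflammatory genes 15 had a log2FC above 0, but this joins 6 of 22 among H-RFI animals (median -0.31) with 20 of 22 among L-RFI animals (median 0.75). Over the 22 the log2FC ranged from -1.30 to 0.92, and the highest was that of NFATC2, a transcription factor of activated lymphocytes (FDR = 0.114). Unlike most of the 22, NFATC2 was higher in KC among H-RFI animals, with 31.5 to 58.8 CPM against 11.6 to 32.2 CPM in ANG.

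**Figure D5:**
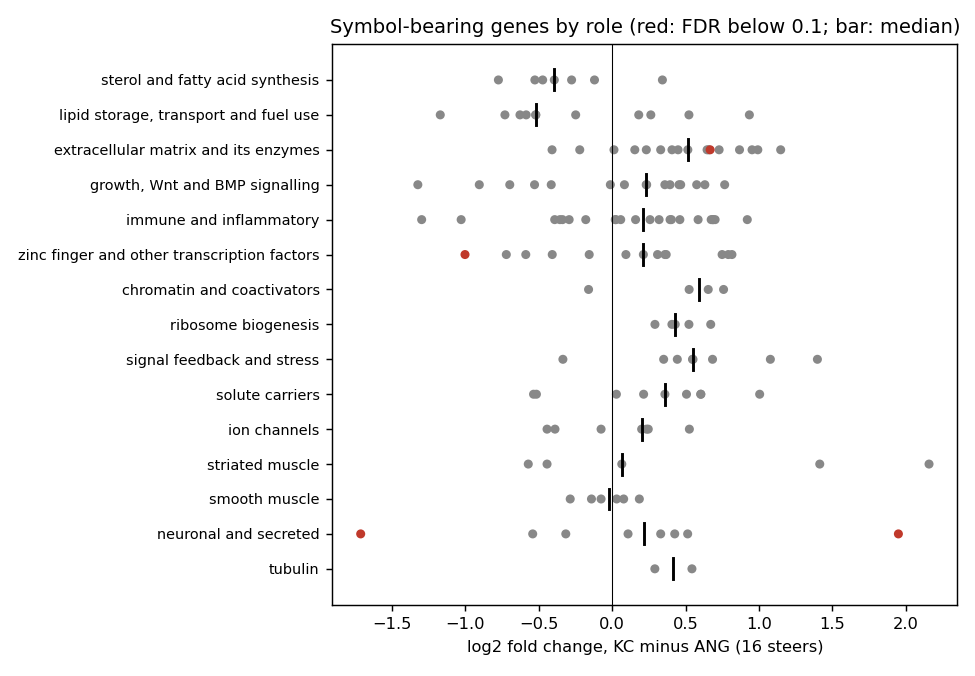
Each dot is the log2 fold change, KC minus ANG over 16 steers (x axis), of 1 gene with a symbol in the role named on the y axis, red where the FDR was below 0.1, and the bar is the median of the role. The matrix genes sit mostly right of 0 (15 of 17), and 4 genes in all are red.

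Markers of other cell types could be followed only in part. Of 537 genes in 27 lists, which cover pathways as well as cell types, 39 had a symbol and 37 were tested. Of these 37, 1 had an FDR below 0.1, against 2.79% of all genes tested. It was THBS2, from the extracellular matrix list and not a cell type marker list. Skeletal muscle was represented by 2 of its 24 markers, TTN and NEB, whose summed level was 64.2 to 274 CPM in KC H-RFI, 83.5 to 2537 in KC L-RFI, 58.6 to 218 in ANG H-RFI and 55.2 to 149 in ANG L-RFI steers. The value of 2537 belonged to F11. Without F11 66 genes were called in place of 33, as was also so without F32. The part of muscle in these counts was not tested. Smooth muscle, with 4 of 14 markers, lay at 134 to 437 CPM in KC and 150 to 333 CPM in ANG. The sums for B and plasma cells, macrophages and dendritic cells, neutrophils, and epithelium held 1 gene each. The Schwann cell and nerve list was not summed. By exact permutation none of the 8 marker sums tested passed a test between the breeds (adjusted p of 0.630 to 0.999 over 12 measures), which does not show that they were equal. Their part in the breed differences was not tested.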

How the data were processed

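RNA-Seq of backfat from 16 steers (8 KC and 8 ANG, 4 H-RFI and 4 L-RFI each, by the labels) was used. The authors removed ribosomal RNA, made stranded libraries, trimmed reads, aligned them to UMD3.1 with TopHat2 (2.0.9), sorted them with SAMtools (1.1) and deposited raw read counts per gene from HTSeq (0.6.1). The annotation version and strand setting are not given in the sources used here. All columns were used, and 3 counts correspond to 0.241 to 0.373 CPM (counting error only).

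The filter kept genes over 1 CPM in 8 or more of 16 steers, and these were fitted with edgeR 4.0.16 (limma 3.58.1, R 4.3.3), TMM factors and the quasi-likelihood test, with RFI group and breed as terms, or 4 groups for contrasts and interaction. The SE is the log2FC divided by the root of the F statistic. CHAR levels come from TMM factors over all 22 steers. Each steer is 1 animal. Alternatives were DESeq2 1.42.0, edgeR's likelihood ratio test, limma-voom, other scalings, filters and covariates, all 22 steers, and leaving out each steer. Permutations numbered 4900.

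Symbols came from the study's supplementary list. Genes named were those past the FDR, the 2 highest of each list and 2 identifiers per direction, and others, including all those named for an RFI group or role, were chosen after their values were seen. The members and lists were chosen with earlier results of these data known. Some genes are not reported here by name.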

Additional observations from a re-analysis of the deposited data

Results flagged for a closer look

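Within the 4 groups of 4 steers, 5 of 152 sets of values held a steer far from the other 3 (Dixon's test on log2 values for genes), and chance flags about 1 in 20 sets. In KC L-RFI, F16 had 25.1 CPM of G0S2, against 80.0 to 81.9 in the other steers, and 14.8 CPM of WNT2, against 6.36 to 6.55. In KC H-RFI, F1 had 262 CPM of PDK4, a kinase that spares glucose, against 572 to 668. The share of ambiguous reads was 0.406% in F28 of ANG H-RFI, against 1.26 to 1.32%, and the share of reads aligned to several places was 28.9% in F9 of KC H-RFI, against 34.5 to 35.2%.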

How the results depend on the processing

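The number of DE genes was within 1.5 times of 33 under limma-voom, both other scalings, no filter, no covariate, RFIfat as covariate, the average over 4 groups, all 22 steers and, chosen after seeing the data, the set of ambiguous reads as covariate (23). A similar number did not mean the same genes, since 21 of the 30 under limma-voom and 20 of the 30 with no filter were among the 33. The number was 58 with DESeq2, 54 with the likelihood ratio test, 21 with CPM above 1 in all 16 steers, 7 with the share of reads on genes as covariate, 4 at an FDR below 0.05 and 380 at any fold. Without single steers it ranged from 7 to 66, the H-RFI count from 0 to 1339, the L-RFI count from 0 to 283 and the interaction count from 0 to 2. The interaction gave 5 genes with the likelihood ratio test and 33 with DESeq2. The cause was not tested. Of 918 values for 34 genes, 861 kept direction and side of the FDR, 35 lost the call and 1 (SFRP4 with DESeq2) gained it. The 21 that changed sign were all of uncalled genes. With the share of reads on genes as covariate the log2FC was 0.030 for SREBF1, 0.077 for CIDEA, -0.063 for PDK4 and 0.013 for NFASC. With limma-voom it was -0.045 for PM20D1 and -0.00369 for PI16, which was -0.026 with no covariate and -0.046 with the ambiguous-read covariate. Without single steers the log2FC ranged from -0.39 to 0.022 for CIDEA, -0.033 to 0.40 for PDK4, -0.064 to 0.34 for PM20D1, -0.59 to 0.095 for IGHM, -0.19 to 0.022 for NFASC and -0.13 to 0.25 for PI16. No paired analysis was possible because the labels number every steer separately and the replicate numbers only follow their order.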
